A study of Arabidopsis thaliana with 12 samples.

Results

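The ahl10-1 mutant of Arabidopsis thaliana was compared with its wild type while both were held at low water potential. The comparison rests on 6 of the 12 RNA-seq libraries of the study, 3 from the Col-0 wild type (WT) and 3 from ahl10-1, and covers all 33602 genes counted, of which 22604 had enough reads to be tested. The ahl10-1 line carries a T-DNA insertion (Salk_073165), and the labels name no further allele or complemented line, so every difference belongs to this single insertion line. Whole seedlings grew on Murashige-Skoog agar without sugar in continuous light at 23 °C. On day 7 the stress groups were moved to agar infused with PEG-8000, a polymer that lowers the water potential of the medium, here to -0.7 MPa. Seedlings were collected 96 h later. Each replicate was an independent biological experiment according to the design text. The other 6 libraries came from the same genotypes kept at -0.25 MPa (control), and they give the same genotype difference in libraries that the stress comparison did not use.

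AHL10 belongs to the AT-hook motif nuclear localized (AHL) family. These proteins carry a short AT-hook that sits in the minor groove of A- and T-rich DNA, together with a PPC domain through which family members associate with each other and with other nuclear proteins. Several AHL proteins restrain growth of the seedling, and AHL10 is known as a nuclear target of the phosphatase HAI1, a clade A PP2C of abscisic acid signalling that is induced when water is limiting. Low water potential slows growth through a regulated response, so genes of cell division, meristems, auxin and jasmonate are among those commonly read in such seedlings.

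Reads assigned to genes ranged from 57996104 to 68555138 in the 6 stress libraries, and no pair of libraries within a group agreed within sampling noise. On principal components of the 6 stress libraries, the genotypes did not overlap on the second component (21.8% of the variance; WT from 3.00 to 33.5, ahl10-1 from -20.4 to -10.9), while the first (26.8%) set ahl10-1 stress replicate 3, at -38.5, apart from the other 5 libraries (-14.2 to 27.8). Among the control libraries, ahl10-1 control replicate 1 stood apart for many of the genes described here. It was singled out after these values were seen. Control values are from all libraries unless stated, and those that shift most without it are also given without it. Levels are CPM, a gene's reads relative to the TMM-scaled size of its library.

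Few genes separated the genotypes under stress. The quasi-likelihood test of edgeR called 6 of 22604 genes (0.0265%) at an adjusted p under 0.05, of which 2 were higher (0.00885%) and 4 lower (0.0177%) in ahl10-1. At an unadjusted p under 0.05 there were 848 genes, 3.75%, of which 431 had positive and 417 negative log2 fold changes, and 51.8% of all tested genes were positive. In control, edgeR called 4 genes (0.0177%), 2 in each direction (0.00885% each), and 5.34% had an unadjusted p under 0.05, 2.52% positive and 2.83% negative. DESeq2's Wald test called 33 genes, 0.146% of those it could test, and these included all 6. Of the 6, only AHL10 and AT5G48760 encode proteins. AT5G35935 and AT3G29120 are annotated as pseudogenes, AT1G67105 as a non-coding RNA and AT2G05914 as a long non-coding RNA.

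AHL10 (AT2G33620, chromosome 2) checks the genotype labels. It was at 63.2, 63.2 and 65.4 CPM in the WT stress libraries and at 33.0, 27.9 and 28.9 CPM in the ahl10-1 stress libraries, with a wide gap between the groups. By edgeR its log2 fold change was -1.09 with SE 0.08 (adjusted p 1.28e-04), and the mean CPM was 46.8% of that in WT. The control libraries had the same step, from 46.0 to 46.8 CPM in WT and from 21.3 to 25.7 CPM in ahl10-1. The control replicate that stood apart was at 25.7 CPM, on the ahl10-1 side. The adjacent gene AT2G33630, whose annotation overlaps that of AHL10, did not follow it, with 62.5, 59.7 and 62.2 CPM in WT stress and 63.1, 60.3 and 60.6 CPM in ahl10-1 stress (log2 fold change -0.00, SE 0.06). Of the 20 genes annotated on the chromosome within 10 positions either side of AHL10, 14 were tested and none was called. Their log2 fold changes lay between -0.10 and 0.19, and 1 of them, the galactan synthase gene GALS1, had an unadjusted p under 0.05.

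AT5G35935, on chromosome 5, was the transcript with the smallest p. It was at 3.02, 2.75 and 1.84 CPM in WT stress and at 30.6, 28.6 and 28.9 CPM in ahl10-1 stress. The fitted log2 fold change in edgeR was 3.53 with SE 0.19 (adjusted p 1.18e-05), and the ratio of the mean CPM was 11.6. AT3G29120, on chromosome 3, was at 0.813, 0.770 and 1.03 CPM in WT stress and at 4.98, 4.34 and 4.26 CPM in ahl10-1 stress. The edgeR log2 fold change was 2.38 with SE 0.18 (adjusted p 1.68e-04), and 11.5% of its reads were multi-mapped, so a share of them could belong elsewhere. Both pseudogenes were separated in the same way in control, where the log2 fold changes were 3.07 and 2.41.

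Both non-coding RNAs were lower in ahl10-1. AT1G67105 (chromosome 1) was at 85.4, 66.5 and 26.6 CPM in WT stress and at 4.64, 4.97 and 4.11 CPM in ahl10-1 stress. The 3 mutant libraries were tightly grouped, and the WT libraries spread widely but stayed above them. The edgeR log2 fold change was -3.70 with SE 0.38 (adjusted p 0.00941), against -2.95 in control. Leaving out any of the 3 ahl10-1 stress libraries ended the call (adjusted p 0.110 to 0.141), as did the fit of the stress libraries alone (adjusted p 0.425). AT2G05914 (chromosome 2), annotated as a natural antisense transcript of AT2G05915, was at 2.22, 2.81 and 3.51 CPM in WT stress and at 0.409, 0.316 and 0.345 CPM in ahl10-1 stress (edgeR log2 fold change -2.98, SE 0.29, adjusted p 0.00148). Counting is not stated to use strand, but AT2G05915 itself had at most 2 reads in any of the 12 libraries.

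AT5G48760, a gene of the ribosomal protein L13 family, was at 76.1, 71.4 and 66.4 CPM in WT stress and at 52.5, 46.4 and 48.2 CPM in ahl10-1 stress. The groups did not overlap, and the difference was small. In edgeR's fit the log2 fold change was -0.54 with SE 0.07 (adjusted p 0.0338). In control it was -0.26. Its call was lost under 12 of 24 alternative settings, among them each fit without one of the 3 ahl10-1 or without WT replicates 1 or 2 of the stress groups (adjusted p 0.0642 to 0.264).

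**Figure D1:**
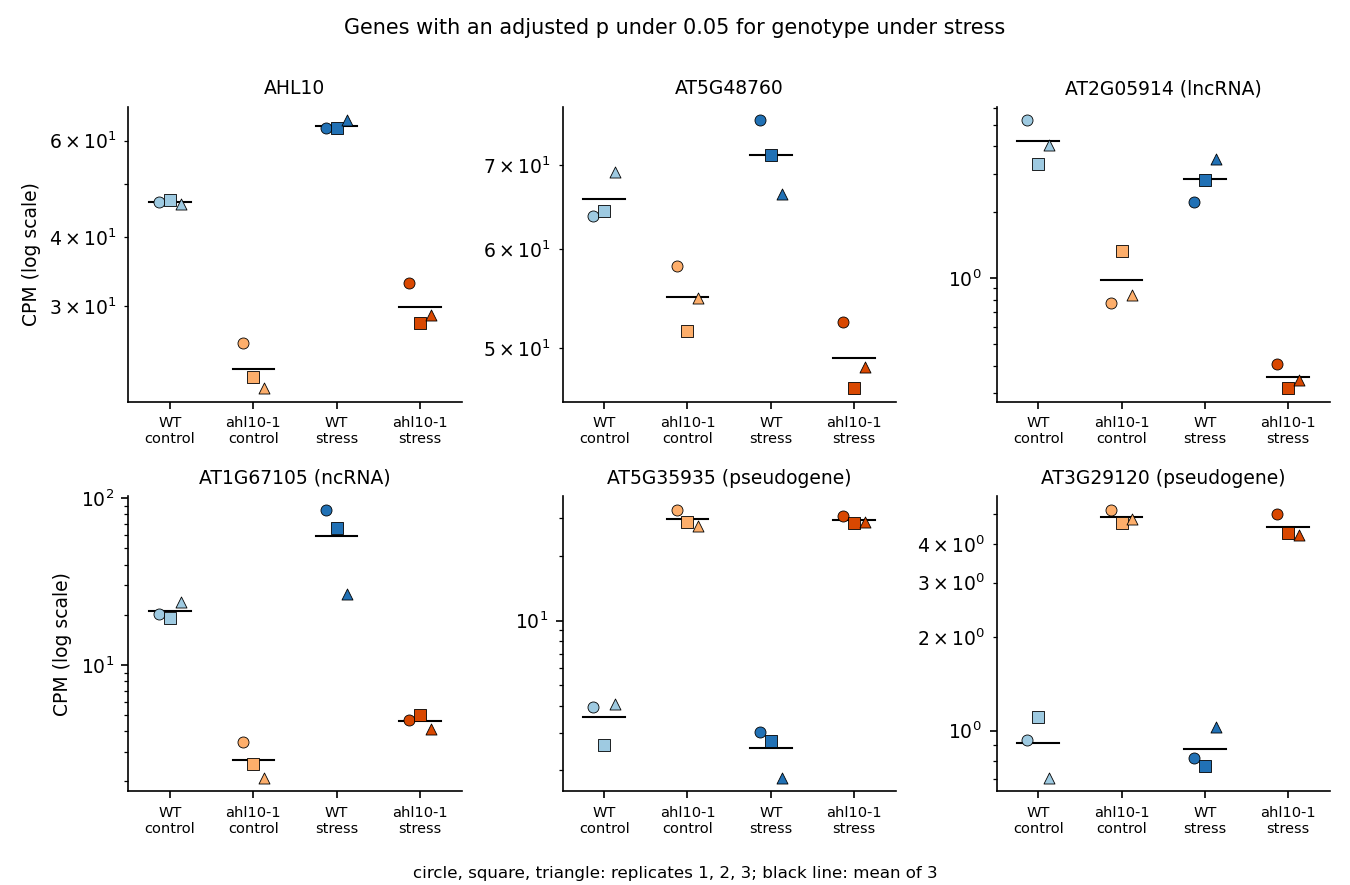
Levels of the 6 genes called between the genotypes under stress, in each of the 12 libraries (vertical axes, CPM on log scales; a black line marks the mean of 3). The 3 ahl10-1 stress libraries (dark orange) lie apart from the 3 WT stress libraries (dark blue) for every gene, and the control libraries (pale) show the same side.

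The A- and T-rich character of DNA near these genes was looked at because AT-hooks bind such DNA. Among 37897 windows of 250 bases just before annotated gene starts in the RefSeq annotation of TAIR10.1, the median A+T share was 68.0%, with quartiles at 63.6% and 72.0%. The windows of the called genes ran from 61.2% for AT5G48760 to 74.0% for AHL10, a range that spans the middle of all windows. AT5G35935 and AT5G35940 are shown because they lie head to head with 682 bases between them and differed between genotypes in opposite directions, and AT1G67105 because it had the largest fall among the called genes. Each is given 5′ to 3′ on the strand of its gene, with runs of 8 or more A and T in capitals. Such a run is present in 91.7% of all windows, so its presence here is a description and sets these genes apart from nothing.
AT5G35935, chr5:14089892-14090141, minus strand: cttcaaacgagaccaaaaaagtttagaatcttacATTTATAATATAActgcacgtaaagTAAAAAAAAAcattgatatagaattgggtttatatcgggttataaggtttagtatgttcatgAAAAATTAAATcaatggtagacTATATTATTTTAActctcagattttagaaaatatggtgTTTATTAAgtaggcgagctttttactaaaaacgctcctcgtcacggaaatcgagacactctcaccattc
AT5G35940, chr5:14090324-14090573, plus strand: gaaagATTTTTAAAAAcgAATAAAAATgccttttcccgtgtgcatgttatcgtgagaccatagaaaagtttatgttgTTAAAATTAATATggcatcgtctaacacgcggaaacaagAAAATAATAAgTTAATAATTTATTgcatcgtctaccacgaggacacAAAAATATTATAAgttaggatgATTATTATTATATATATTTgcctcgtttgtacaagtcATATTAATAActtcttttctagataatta
AT1G67105, chr1:25057229-25057478, plus strand: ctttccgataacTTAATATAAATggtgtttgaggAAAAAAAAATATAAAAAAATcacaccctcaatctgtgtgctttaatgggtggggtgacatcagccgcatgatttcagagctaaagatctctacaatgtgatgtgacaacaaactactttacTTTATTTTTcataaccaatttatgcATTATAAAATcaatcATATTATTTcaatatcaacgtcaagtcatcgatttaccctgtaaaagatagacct

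The partner of the risen pseudogene, AT5G35940, encodes a mannose-binding lectin family protein. This gene was picked with its values in view. It was at 6.99, 8.20 and 4.85 CPM in WT stress and at 3.75, 2.94 and 1.99 CPM in ahl10-1 stress, and the groups did not overlap. Its log2 fold change was -1.20 with SE 0.34 (unadjusted p 0.00445 in edgeR's test). In control the log2 fold change was -1.31. The divergent pair thus differed in opposite directions at both water potentials. AT3G29140, a gene of unknown function 6547 bases from the pseudogene AT3G29120, had a log2 fold change of 1.89 (SE 0.44) from 0.110 to 0.233 CPM in WT stress and 0.501 to 0.745 CPM in ahl10-1 stress. AT3G29130, which lies between them, was at 11.3 to 12.7 CPM in WT stress and at 9.84 to 11.6 CPM in ahl10-1 stress, with overlapping groups.

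A few transcripts had 0 reads in 1 genotype under stress. They were picked with their values in view. Across all 33602 genes, 2 (0.00595%) had 0 reads in all 6 libraries of one genotype and at least 10 reads in each library of the other. The pseudogene AT3G28915 had 57, 26 and 21 reads in WT stress and 34, 49 and 22 in WT control, and 0 in every ahl10-1 library. The pseudogene AT5G44925 had 24, 24 and 15 reads in ahl10-1 stress and 38, 37 and 20 in ahl10-1 control, and 0 in every WT library. Against a floor of 3 reads per library, AT3G28915 was at least 10.8-fold lower in ahl10-1 under stress and AT5G44925 at least 7.15-fold higher. AT1G63070, which encodes a pentatricopeptide repeat protein, had 0 reads in the ahl10-1 stress libraries and 0.283 to 0.613 CPM in WT stress, at least 9.35-fold lower in ahl10-1. It was not 1 of those 2 genes. In control its log2 fold change was -5.53, and -8.21 without ahl10-1 control replicate 1. None of the 3 passed the threshold in edgeR's fit (adjusted p 0.0803 to 0.143).

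The share of genes at an unadjusted p under 0.05 differed between annotated classes in both directions. Of 231 genes annotated as pseudogenes and tested, 23 (9.96%) had an unadjusted p under 0.05, as did 11 of 138 non-coding RNAs (7.97%) and 787 of 21486 protein-coding genes (3.66%). Among transcribed pseudogenes it was 5 of 200 (2.5%), and among long non-coding RNAs 9 of 191 (4.71%). No test compared these shares. Tested pseudogenes had a median of 67.0 reads per stress library and protein-coding genes 1110, and the part of that difference in depth in these shares was not tested. One further non-coding RNA, AT4G04223, picked with its values in view, was at 2.76, 0.707 and 1.30 CPM in WT stress and at 9.65, 10.1 and 8.43 CPM in ahl10-1 stress, with 10.4% of its reads multi-mapped (edgeR log2 fold change 2.55, SE 0.51, adjusted p 0.557).

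The authors' deposited table for this comparison, which rests on the same 6 libraries, held 85 genes at an adjusted p under 0.05 of 23755 with a value (0.358%). Of these, 35 (0.147%) were higher and 50 (0.21%) lower in ahl10-1. In the fit of all 12 libraries made here, the 6 called genes were all among the 85, and 66 of the 85 had an unadjusted p under 0.05. For every one of the 85 the 3 ahl10-1 stress libraries lay on one side of the 3 WT stress libraries, as did 11.9% of all tested genes. Most differences were modest: 58 of the 85 had a log2 fold change under 1 in either direction. The 85 comprised 73 protein-coding genes, 6 pseudogenes and 6 non-coding RNAs.

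For the 50 lower genes, the control comparison turned on 1 library. With all libraries, 46 of the 50 had a negative log2 fold change in control, with a median of -0.24, against -0.77 under stress, and 18 had an unadjusted p under 0.05. The 50 were selected by their stress values, which can enlarge the stress median, so the 2 medians are not a like comparison. The library ahl10-1 control replicate 1 held the highest of the 3 ahl10-1 control values for 44 of these 50 genes, whereas no WT control library did so for more than 19 of them in its own group. Without it, all 50 were negative in control, the median was -0.86, and 44 had an unadjusted p under 0.05. The library was set aside because it was high for these same genes, so leaving it out makes their control values more negative by construction, and this count is a description with no weight as a test. Over all genes, 14.4% then had an unadjusted p under 0.05 in control, in place of 5.34%. Leaving out each of the other 5 control libraries in turn gave medians between -0.28 and -0.07 and 29 to 46 negative members, with the fewest, 29, without ahl10-1 control replicate 2 and 30 without ahl10-1 control replicate 3.

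The stress log2 fold changes do not rest on that control library, but the shared spread of the fit does. Without it, 48 of the 50 had an unadjusted p under 0.05 under stress, in place of 35, while the number over all genes went from 848 to 1189 (5.22%). Calls under stress went from 6 to 8, among them SADHU3-2 (adjusted p 0.0437) and AT5G53486 (adjusted p 0.0163), and calls in control from 4 to 12. These counts also follow a choice of library made after the values were seen and are a description only. Across all tested genes, 65% had the same sign in both conditions, and among the 848 it was 83.3% (83.5% of the positive and 83% of the negative ones). Without the library these shares were 66.3% and, among the 1189, 88.2%. The control and stress comparisons share no library. Whether same-numbered control and stress libraries of a genotype deviated together was not checked, so the comparisons may not be independent.

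For the higher genes that library made little difference. In control, 30 of the 35 had a positive log2 fold change, with a median of 0.23, against 0.51 under stress. Here too the selection by stress values can enlarge the stress median. Without ahl10-1 control replicate 1, 27 of 35 were positive and the median was 0.22, and without each of the other control libraries 28 to 32 were positive, with medians of 0.17 to 0.29. No gene was called for the interaction, that is, for a genotype difference that depends on water potential. The interaction had 320 genes (1.42%; 0.956% positive and 0.46% negative) at an unadjusted p under 0.05 in edgeR's test, and DESeq2's Wald test called 1 gene, which was outside the 85. Of the 85, 10 had an unadjusted interaction p under 0.05, 5 among the higher and 5 among the lower genes. The interaction includes the stress difference by which the 85 were selected, so this count carries no weight as a test.

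**Figure D2:**
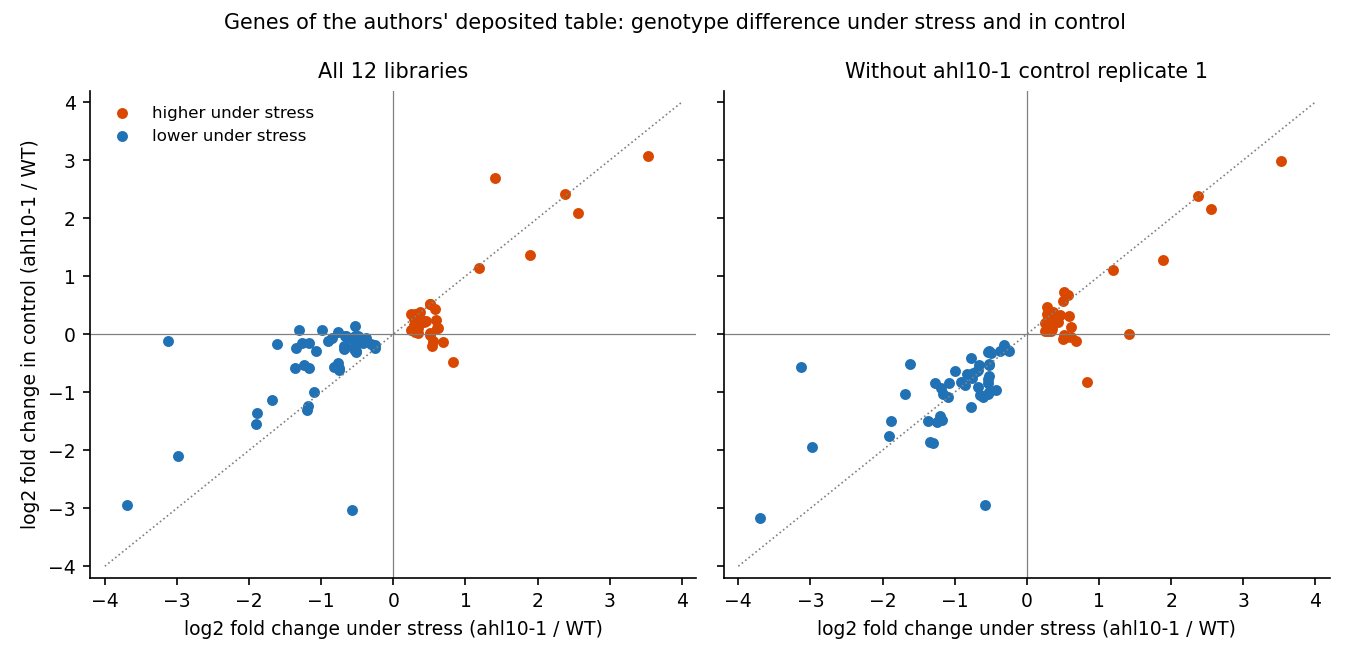
Log2 fold change of ahl10-1 over WT in control (vertical axis) against the same under stress (horizontal axis) for the 85 genes of the authors' deposited table, from the fit of 12 libraries (left) and without ahl10-1 control replicate 1 (right); the dotted line marks equal values, and 3 genes at 0 reads in a group lie outside the axes. The lower genes (blue) have a median control value of -0.24 on the left and -0.86 on the right, while the higher genes (orange) stay at 0.23 and 0.22.

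STM, the homeobox gene that keeps the shoot meristem undifferentiated, was among the largest falls in the authors' deposited table (log2 fold change -0.59 there, which is shrunken). It was at 6.45, 8.03 and 6.67 CPM in WT stress and at 2.41, 2.18 and 3.73 CPM in ahl10-1 stress. Every mutant library was below every WT library, which the rule for naming it required. The log2 fold change here was -1.35 (SE 0.68, adjusted p 0.999), and it was not called. In control it was at 6.0 to 9.27 CPM in WT and at 15.5, 2.37 and 1.92 CPM in ahl10-1, where replicate 1 was far above the other mutant libraries. Without that library the SE was smaller, and the adjusted p was 0.0917 under stress and 0.0369 in control, where the log2 fold change was -1.87. The library was set aside for being high in such genes, so these p-values carry no weight as a test.

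The same arrangement recurred in other genes of the 50. UMAMIT32, of the UmamiT amino acid transporter family, was at 2.01 to 2.72 CPM in WT stress and at 0.862 to 1.12 CPM in ahl10-1 stress, while ahl10-1 control replicate 1 was at 6.58 CPM and the other mutant control libraries at 0.848 and 0.521 CPM. AT5G53486, of unknown function, was at 9.70 to 10.8 CPM in WT stress and at 3.08 to 4.96 CPM in ahl10-1 stress, and at 12.3, 4.5 and 4.26 CPM in ahl10-1 control. The auxin-conjugating enzyme gene DFL1 (GH3.6), picked with its values in view, was at 47.5, 59.8 and 59.6 CPM in WT stress and at 43.0, 37.4 and 34.9 CPM in ahl10-1 stress. In ahl10-1 control it was at 174 CPM in replicate 1 and at 31.0 and 41.8 CPM in the others. Its close relative WES1 (GH3.5) was at 26.9 to 31.7 CPM in WT stress and at 19.2 to 22 CPM in ahl10-1 stress.

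Further genes lower in the authors' deposited table span several functions. The bHLH11 transcription factor gene (2.43 to 3.25 CPM in WT stress, 1.31 to 1.39 in ahl10-1 stress) and the cytochrome P450 gene CYP722A1 (6.91 to 7.51 CPM, 3.38 to 4.63) had log2 fold changes of -1.08 and -0.77. The serine carboxypeptidase-like gene scpl31 was at 11.4 to 13.9 CPM in WT stress and at 5.61 to 9.07 CPM in ahl10-1 stress. Adjacent genes AT2G19910 and AT2G19920, both of the RNA-dependent RNA polymerase family, had log2 fold changes of -0.67 and -0.91. The boron transporter gene BOR1 was at 48.1 to 53.2 CPM in WT stress and at 33.3 to 40.6 CPM in ahl10-1 stress, and the boric acid channel gene NIP6;1 at 13.1 to 16.7 and 8.68 to 11.4 CPM. BOR1, NIP6;1, AT2G19910 and WES1 were picked with their values in view. None of these genes was called in the fit of 12 libraries. In each the stress groups did not overlap, as in all 85 genes of the authors' deposited table (11.9% of all tested genes). This adds no support to their differences, since the selection used the same libraries.

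MRD1 and SADHU3-2 had negative log2 fold changes in both conditions, and ahl10-1 control replicate 1 was not their highest library. Neither was called under stress or in control in the fit of 12 libraries. MRD1, a gene named for its low transcript level in a methionine over-accumulating mutant, was at 3.67, 4.24 and 3.46 CPM in WT stress and at 0.818, 1.26 and 0.950 CPM in ahl10-1 stress (log2 fold change -1.91, SE 0.31, adjusted p 0.108). Its mutant control libraries were at 0.736 to 1.16 CPM. SADHU3-2, of the Sadhu family of non-coding retrotransposons, was at 6.74, 4.10 and 3.64 CPM in WT stress and at 1.39, 1.04 and 1.49 CPM in ahl10-1 stress (log2 fold change -1.89, SE 0.27, adjusted p 0.0507). In control the log2 fold changes were -1.55 and -1.35.

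**Figure D3:**
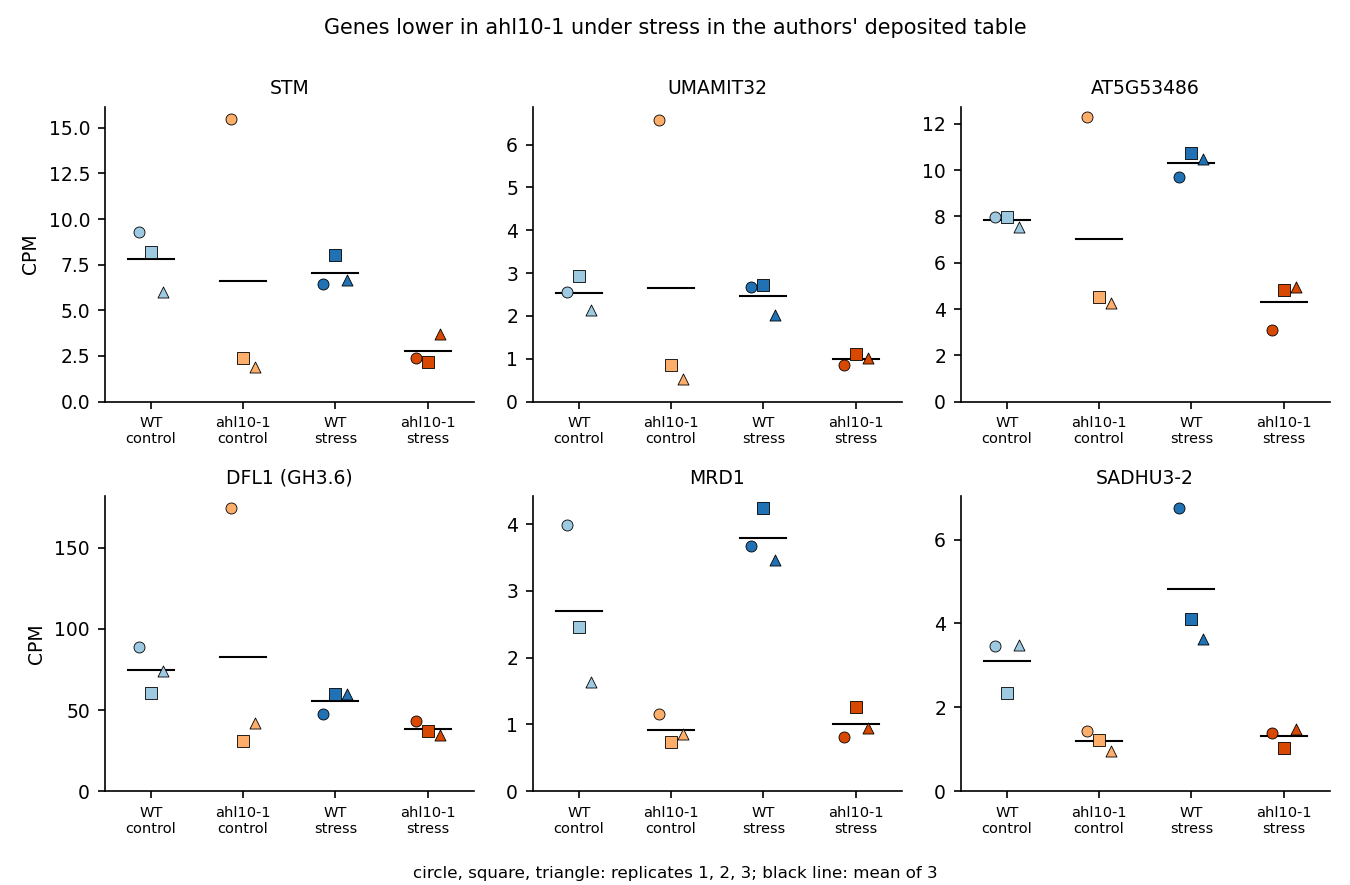
Levels of 6 of the 50 genes lower under stress in the authors' deposited table, in each of the 12 libraries (vertical axes, CPM from 0; a black line marks the mean of 3; circles are replicate 1). The ahl10-1 stress libraries lie below the WT stress libraries in all 6 panels, as for all 50 genes. The library ahl10-1 control replicate 1 is the highest of all 12 for STM, UMAMIT32, AT5G53486 and DFL1 but not for MRD1 or SADHU3-2.

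Genes of jasmonate synthesis were mostly higher in ahl10-1 under stress. Jasmonate is made from linolenic acid by lipoxygenases (LOX), allene oxide synthase (AOS) and allene oxide cyclases (AOC) in the plastid, then shortened in peroxisomes and joined to isoleucine by JAR1. Of 16 tested members of this list, 15 had a positive log2 fold change and the median was 0.16, against 0.01 over all tested genes. It was 0.24 without WT stress replicate 3 and 0.11 without ahl10-1 stress replicate 3. None was called. AOS, AOC1, AOC2 and JAR1 had an unadjusted p under 0.05, all positive (background 1.91%), and in 5 of the 16 every ahl10-1 library was above every WT library (background 5.86%). In control 8 were positive and 8 negative, with a median of -0.01, and without ahl10-1 control replicate 1 there were 4 positive and 12 negative with the same median.

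AOS was at 121, 108 and 132 CPM in WT stress and at 176, 156 and 184 CPM in ahl10-1 stress, with no overlap (log2 fold change 0.51, SE 0.11, adjusted p 0.526). In control the genotypes overlapped at 117 to 134 CPM in WT and 110 to 137 CPM in ahl10-1 (log2 fold change 0.03). AOC1 was at 30.2, 26.3 and 31.4 CPM in WT stress and at 57.8, 37.8 and 45.8 CPM in ahl10-1 stress, against 16.7 to 27.5 and 17.4 to 21.6 CPM in control. Its tandem neighbour AOC2 was at 165, 134 and 200 CPM in WT stress and at 263, 194 and 226 CPM in ahl10-1 stress, where the lowest mutant library was below the highest WT library. No read of AOC1 or AOC2 was counted as multi-mapped under stress. The interaction had an unadjusted p of 0.00698 for AOS and 0.0096 for AOC1, and neither passed the threshold after adjustment over all genes (adjusted p 1.00 for both).

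The jasmonate output list, genes that respond to the hormone, had a median log2 fold change of 0.48 over 14 tested members, 9 positive and 5 negative, and none was called. VSP2, which encodes a vegetative storage protein, was at 516, 432 and 634 CPM in WT stress and at 727, 742 and 781 CPM in ahl10-1 stress (log2 fold change 0.51, SE 0.14), without overlap. Its relative VSP1 was at 240, 139 and 288 CPM in WT stress and at 315, 321 and 321 CPM in ahl10-1 stress. CORI3, a coronatine-induced aminotransferase-like gene, was at 128, 106 and 137 CPM in WT stress and at 171, 176 and 193 CPM in ahl10-1 stress. In control the log2 fold changes of VSP2, VSP1 and CORI3 were -0.01, -0.18 and -0.12. ALPHA DOX2, a fatty acid dioxygenase gene, was at 53.3, 57.0 and 57.7 CPM in WT stress and at 70.2, 74.6 and 68.6 CPM in ahl10-1 stress, and its log2 fold change of 0.35 (SE 0.06) was accompanied by 0.28 in control. The defensin gene PDF1.2c, with a negative value, had 39 reads in WT stress replicate 3 and at most 2 in any other stress library. WT stress replicate 2 had the lowest level of the 6 stress libraries for VSP1, VSP2, CORI3, AOS, AOC1 and AOC2, and without it the median of the output list was 0.19. In control that median was -0.15, and -0.24 without ahl10-1 control replicate 1.

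The list of receptor, MYC factor and JAZ repressor genes had 18 of 21 positive values with a median of 0.05 and no member at an unadjusted p under 0.05. MYC2, the main activator, was named outside the rule of smallest p, and it too had no unadjusted p under 0.05. It was at 80.2, 72.1 and 76.7 CPM in WT stress and at 103, 88.3 and 88.4 CPM in ahl10-1 stress (log2 fold change 0.29). Jasmonate breakdown genes were positive in 7 of 9 with a median of 0.20, again with none at an unadjusted p under 0.05, and the median was 0.07 without WT stress replicate 2.

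The promoter window of AOS is shown because AOS had the smallest p of the jasmonate synthesis genes. The motif CACGTG, the G-box bound by MYC factors, was searched on both strands. It is in 5.39% of the 37897 windows and in 1 of the windows of the 9 jasmonate synthesis and output genes with an unadjusted p under 0.05. That window is the one of AOS, where the motif (capitals) ends at the last base before the annotated start. A match in a window is a description of its letters only.
AOS, chr5:17099596-17099845, minus strand: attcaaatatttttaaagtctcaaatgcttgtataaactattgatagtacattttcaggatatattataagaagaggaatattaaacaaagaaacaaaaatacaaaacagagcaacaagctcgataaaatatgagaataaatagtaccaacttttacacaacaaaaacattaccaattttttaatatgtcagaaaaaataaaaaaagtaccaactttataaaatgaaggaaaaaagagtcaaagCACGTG

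**Figure D4:**
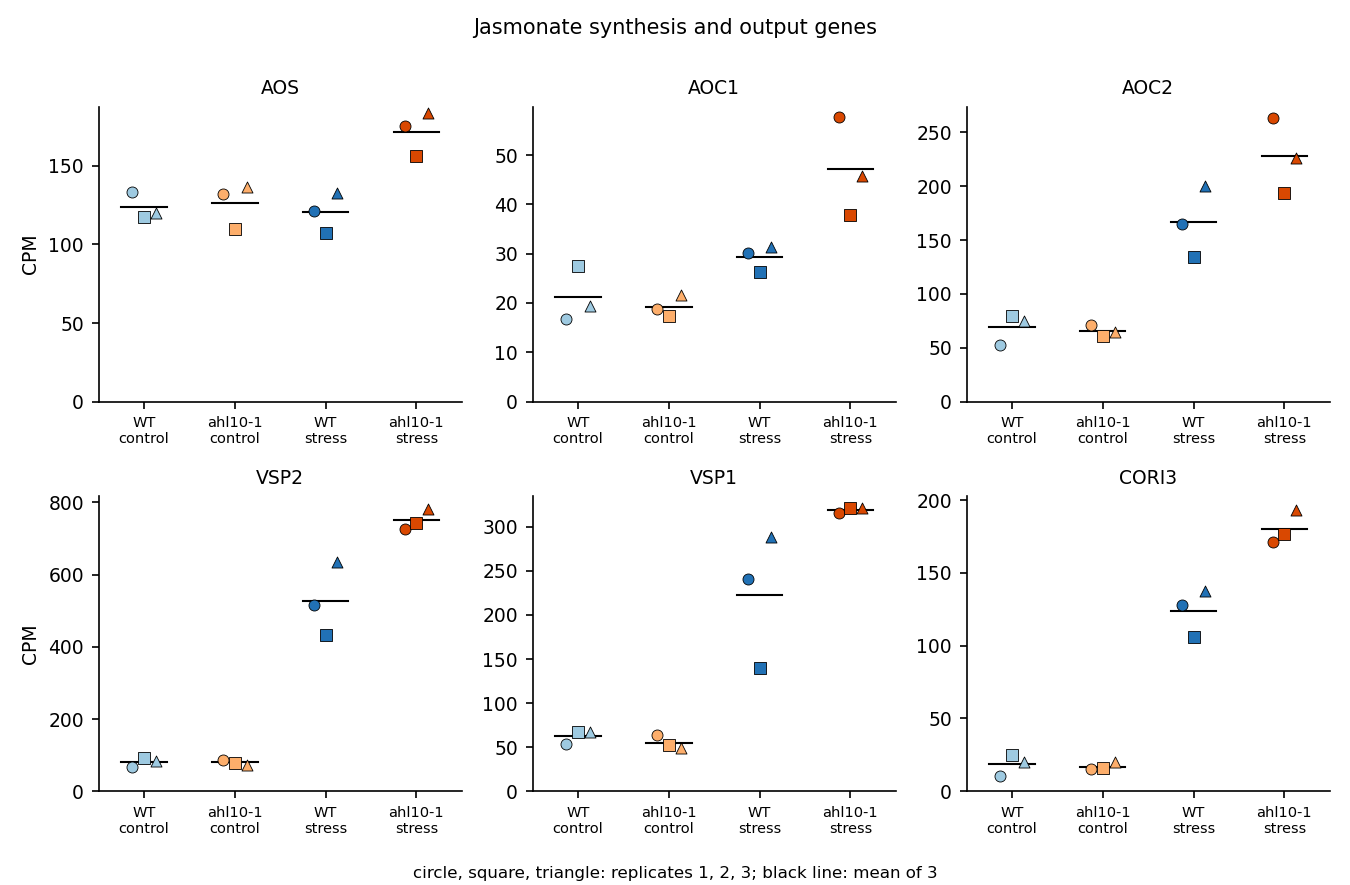
Levels of 3 jasmonate synthesis genes (AOS, AOC1, AOC2) and 3 output genes (VSP2, VSP1, CORI3) in each of the 12 libraries (vertical axes, CPM from 0; a black line marks the mean of 3). The ahl10-1 stress libraries lie above the WT stress libraries except for AOC2, where the groups overlap, and the control groups overlap in all 6 panels.

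Other genes higher in the authors' deposited table ranged in size. AT4G18440, of the aspartase-like enzyme family, was at 79.7, 75.2 and 98.1 CPM in WT stress and at 140, 111 and 136 CPM in ahl10-1 stress. The thionin gene AT1G66100 was at 32.8, 29.0 and 33.3 CPM in WT stress and at 53.3, 47.4 and 40.8 CPM in ahl10-1 stress. MSRB6, a methionine sulfoxide reductase gene, was at 9.69 to 13.6 CPM in WT stress and at 17.0 to 18.4 CPM in ahl10-1 stress. The cellulose synthase-like gene CSLA01 was at 2.69, 1.00 and 1.63 CPM in WT stress and at 5.13, 4.31 and 4.80 CPM in ahl10-1 stress, and at 0 in all 3 WT control libraries. CYP71B19, a cytochrome P450 gene, and the non-coding RNA AT5G38005 had similar values in both conditions, at log2 fold changes of 0.50 and 1.19 under stress and 0.52 and 1.14 in control. The vacuolar invertase gene ATBETAFRUCT4 was at 138 to 154 CPM in WT stress and 168 to 203 CPM in ahl10-1 stress, with log2 fold changes of 0.37 under stress and 0.39 in control. The tonoplast malate transporter gene TDT was at 80.3 to 86.2 and 100 to 109 CPM. ATBETAFRUCT4 and TDT were picked with their values in view.

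By unadjusted p, the 8 protein-coding genes with the strongest positive values and at least 5 CPM were, besides AT4G18440, MSRB6, AOS, CYP71B19 and ALPHA DOX2, the terpene-oxidising P450 gene CYP76C1 (log2 fold change 0.27), the ion channel POLLUX-like gene AT5G02940 (0.42) and AT1G68600 of the malate transporter family (0.37). The 8 negative ones were, besides AHL10 and AT5G48760, AT2G01913 of unknown function (-0.52), the HSP20-like chaperone gene AT1G76780 (-0.76), the F-box gene AT5G56370 (-0.52), the phragmoplast kinesin gene PAKRP1 (-0.34), the asparaginyl-tRNA synthetase gene NS2 (-0.28) and AT2G01008 (-0.75). Of the reads of AT2G01008, 42.6% were multi-mapped, so its value is uncertain.

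Mitotic genes were slightly lower in ahl10-1. All 20 members of the mitosis list, cyclins, B-type CDKs and cytokinesis genes, had negative log2 fold changes under stress, from -0.32 to -0.06 with a median of -0.18. None was called, 5 had an unadjusted p under 0.05 (background 1.84%), and in 6 every ahl10-1 library was below every WT library (background 6.01%). MYB3R-4, an activator of G2 and M phase genes, was at 26.6, 25 and 25.3 CPM in WT stress and at 19.8, 21.2 and 20.9 CPM in ahl10-1 stress. The mitotic kinase gene CDKB1;1 was at 17.7, 17.2 and 15.7 CPM in WT stress and at 14.5, 13.7 and 14.2 CPM in ahl10-1 stress. The cyclin gene CYCB1;1 was at 12.7, 12.1 and 11.3 CPM in WT stress and at 8.68, 10.0 and 10.2 CPM in ahl10-1 stress. The summed level of the list was 436, 391 and 387 CPM in WT stress and 355, 337 and 386 CPM in ahl10-1 stress, so that the groups just failed to overlap. In whole seedlings, fewer dividing cells and less RNA per dividing cell cannot be told apart. In control 19 of 20 were negative, with a median of -0.12, and without ahl10-1 control replicate 1 all 20 were, with a median of -0.13. Without WT stress replicate 1 the median under stress was also -0.12, and without ahl10-1 stress replicate 2 there were 2 positive members.

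Markers of seedling parts were read beside these values. Shoot meristem and young leaf genes had 8 of 9 negative values with a median of -0.22, from -0.31 without ahl10-1 stress replicate 2 to -0.13 without WT stress replicate 1. In control the median was -0.09, and -0.55 without ahl10-1 control replicate 1. The summed level under stress was 84.5, 79.0 and 79.5 CPM in WT stress and 64.6, 64.4 and 66.7 CPM in ahl10-1 stress. None of the 9 was called or had an unadjusted p under 0.05 in edgeR's test. In 5 of the 9 every ahl10-1 library was below every WT library (background 6.01%). STM and the homeobox gene KNAT1 (16.1 to 18.3 CPM in WT stress, 12.2 to 14.8 in ahl10-1 stress) were among these 5. The stem cell gene CLV3 had at most 0.0665 CPM. The 16 photosynthetic shoot markers were all positive with a median of 0.20, but none had an unadjusted p under 0.05. Their summed levels overlapped, and without ahl10-1 stress replicate 3 the median was 0.05 with 13 positive. The 20 root markers were balanced, with 11 positive and 9 negative and a median of 0.03. Guard cell, phloem and xylem markers had medians of 0.05, -0.02 and -0.05. The seed list had 6 of 13 genes tested, with SESA3 and LEC1 at 0 reads, and a median of -0.12. Among senescence genes SAG12 was at 0 reads, and the chlorophyll breakdown genes ACD1 and NYE1 had log2 fold changes of 0.28 and 0.25. Of the 9 tested, 6 were positive and 3 negative, the lowest at -0.83, with a median of 0.16. In control 3 were positive and 6 negative, with a median of -0.08. The medians of the root, guard cell, phloem, xylem, seed and senescence lists changed sign under some alternative settings. The part of tissue makeup in the genotype differences was not tested.

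**Figure D5:**
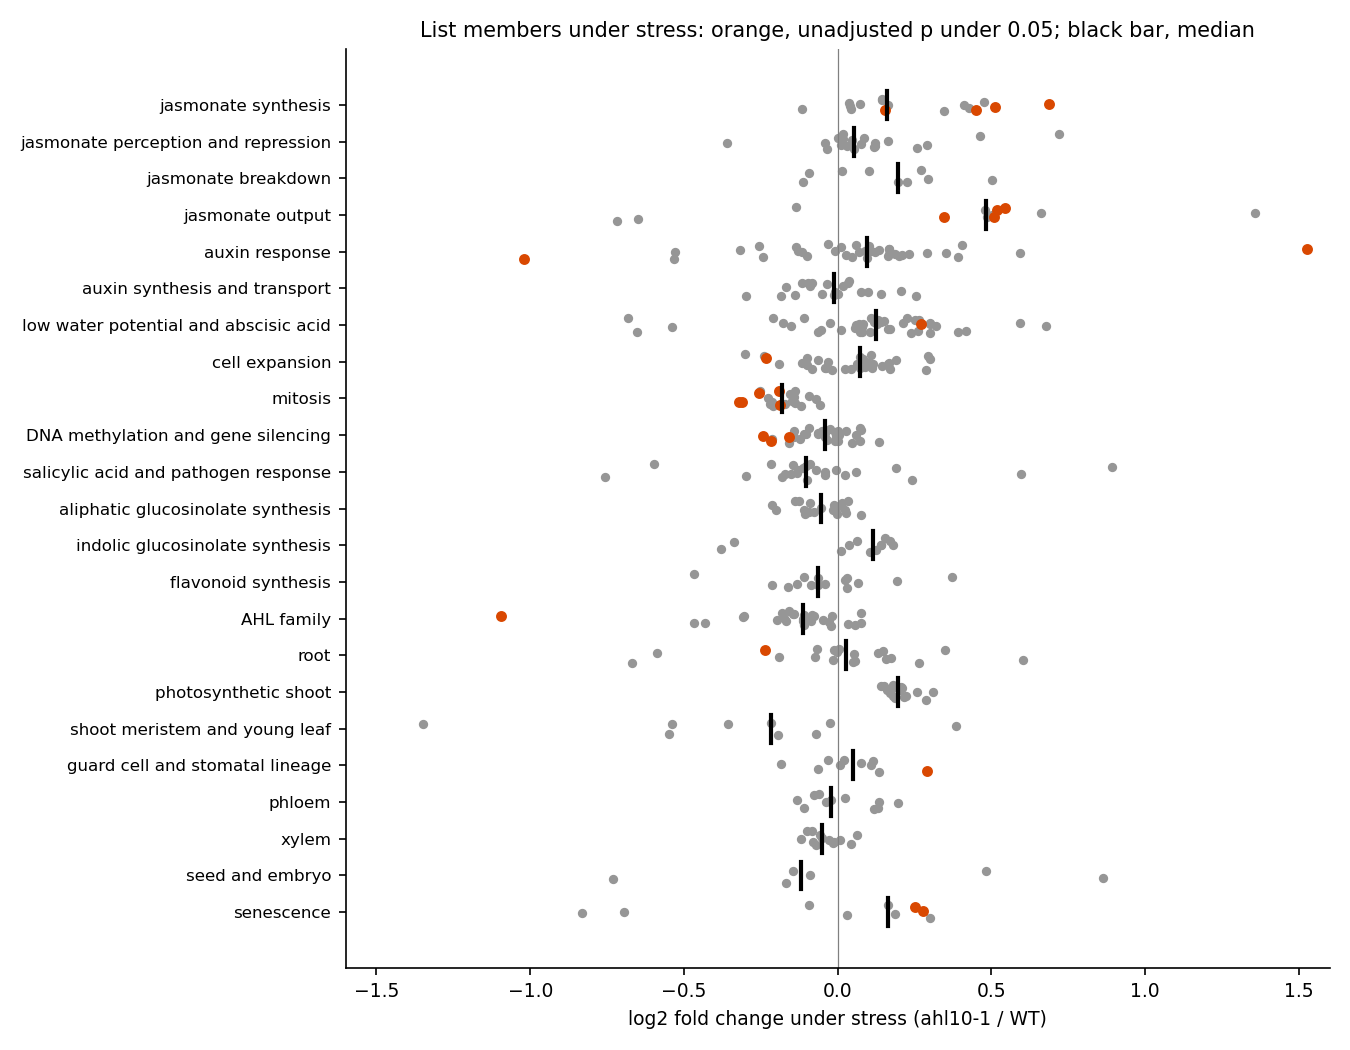
Log2 fold change of ahl10-1 over WT under stress (horizontal axis) for the tested members of 23 gene lists (rows); orange points have an unadjusted p under 0.05 and black bars are medians, and 2 defensin genes of the jasmonate output list lie outside the axis. All 20 mitosis genes lie below 0 and all 16 photosynthetic shoot genes above 0, while AHL10 is the only called member of any list.

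Genes of the response to low water potential itself had more positive than negative log2 fold changes under stress, from -0.68 to 0.68. Of 42 tested members of this list, 32 were positive, with a median of 0.12, and none was called. The number positive ran from 23 (median 0.03) without ahl10-1 stress replicate 1 to 38 (median 0.23) without WT stress replicate 2. In control 14 were positive with a median of -0.09, and 8 with a median of -0.21 without ahl10-1 control replicate 1. P5CS1, the key enzyme gene of proline synthesis, was at 736, 776 and 645 CPM in WT stress and at 836, 860 and 888 CPM in ahl10-1 stress (log2 fold change 0.26, SE 0.14), without overlap. The galactinol synthase gene GolS1 was the only member with an unadjusted p under 0.05, at 46.0 to 53.3 CPM in WT stress and 55.9 to 62.0 CPM in ahl10-1 stress. Its control difference had the opposite sign (-0.26, against 0.27 under stress), with an unadjusted interaction p of 8.00e-04 and an adjusted p of 1.00. HAI1, the phosphatase gene tied to AHL10, had a log2 fold change of 0.08, and HAI2 and HAI3 had 0.11 and 0.59.

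Auxin response genes were more often positive than negative under stress, unlike auxin synthesis and transport genes. Of 37 auxin response genes 25 were positive (median 0.09, or 0.03 without ahl10-1 stress replicate 1), with LBD29, a lateral root factor gene below 0.5 CPM in every stress library, at 1.52 and the SAUR gene AT2G18010 at -1.02 as the members with an unadjusted p under 0.05. In control 26 of the 37 were positive, with a median of 0.15, and 10 had an unadjusted p under 0.05 in edgeR's test. Without ahl10-1 control replicate 1, 17 were positive and 20 negative in control, with a median of -0.02. Of 21 auxin synthesis and transport genes 9 were positive under stress (median -0.01). Among 33 cell expansion genes the median was 0.07, and the expansin gene EXPA4 was at 284, 236 and 259 CPM in WT stress and at 231, 220 and 213 CPM in ahl10-1 stress.

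DNA methylation and silencing genes had 24 of 34 negative values with a median of -0.04. The maintenance methyltransferase gene MET1 was at 65.9, 67.5 and 71.9 CPM in WT stress and at 59.4, 58.3 and 66.1 CPM in ahl10-1 stress, where 1 mutant library lay just above the lowest WT library. NRPD1A and NRPD1B, the largest subunit genes of RNA polymerases IV and V, had log2 fold changes of -0.24 and -0.22. They were among 7 of the 34 in which every ahl10-1 library was below every WT library (background 6.01%). Without WT stress replicate 3 the split of signs was even, with 17 positive. Of the 27 tested AHL family genes other than AHL10, none had an unadjusted p under 0.05. The whole family of 28 had 24 negative values with a median of -0.11 (9 positive, median -0.06, without ahl10-1 stress replicate 3), and AHL4 had the smallest p after AHL10, at 15.9 to 16.6 CPM in WT stress and 12.1 to 13.7 CPM in ahl10-1 stress. Salicylic acid, aliphatic glucosinolate, indolic glucosinolate and flavonoid lists had medians of -0.10, -0.05, 0.12 and -0.06 with no member at an unadjusted p under 0.05, and single libraries moved each of these. The salicylic acid median was -0.01 and the flavonoid median 0.11 without WT stress replicate 3, the indolic median was 0.04 without WT stress replicate 2, and the aliphatic median was -0.14 without ahl10-1 stress replicate 3 and under 0.01 in size without ahl10-1 stress replicate 1. In control the aliphatic median was -0.09, and -0.42 without ahl10-1 control replicate 1.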

How the data were processed

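Per the labels' protocols, polyA RNA of whole seedlings was made into strand-specific libraries. The submitters' processing notes name CASAVA, bcl2fastq 1.8.4, Bowtie2, DESeq2 and TAIR10. The authors deposited, per library, estimated counts of reads per gene, of which 3.98% to 4.56% were not whole and were rounded here, with RPKM (reads scaled to gene length and library size, used in alternatives), gene length and the fraction of multi-mapped reads, 1.25% to 2.33% of reads. The authors' deposited comparison tables give log2 fold changes with standard errors, p-values and a base mean (a mean of normalized counts, held here as a score and not used further). Whether counting used strand is not stated.

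The main test was the robust quasi-likelihood test of edgeR 4.0.16 (R 4.3.3) with TMM scaling, on genes passing filterByExpr (minimum count 10, minimum total 15). A single model held all 12 libraries and a mean for each of the 4 groups, leaving 8 residual degrees of freedom. The contrast was ahl10-1 stress minus WT stress, and the control and interaction contrasts came from the same fit. Fold changes are ahl10-1 over WT. P-values were adjusted by Benjamini-Hochberg over all 22604 genes, and calls were made at 0.05. The code was tested on simulated data. Identifiers of 32835 genes matched RefSeq's TAIR10.1 table, from which names, biotypes, neighbours and promoter windows were taken. Of 457 list entries, 455 matched.

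Named genes were AHL10, every called gene, the 12 largest rises and 12 largest falls of the authors' deposited table (adjusted p under 0.05, at least 1 CPM, no overlap), the 8 protein-coding genes with the smallest p per direction at 5 CPM or more, up to 4 members per list by p, and 2 neighbours of AHL10 on each side. Some list members, MYC2 among them, were named outside these rules. The members, lists and rules were chosen with earlier results of these data known. Alternatives were DESeq2 1.42.0, limma 3.58.1 on log2(RPKM + 1) and log2(RPKM + 0.1), other scalings and filters, no multi-mapped reads, the stress libraries alone, the replicate number as a block, and leaving out each library.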

Additional observations from a re-analysis of the deposited data

How the results depend on the processing

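The count of called genes was 6. DESeq2's Wald test called 33 (18 higher, 15 lower) and a DESeq2 fit of the stress groups alone, with shrunken fold changes and no multi-mapped reads, called 77 (32 higher, 45 lower). All 6 genes were kept in both, and the cause was not tested. Leaving out 1 library gave 4 to 8 calls, with 4 without ahl10-1 stress replicate 1 or 2 and 8 without ahl10-1 control replicate 1. The remaining settings gave 5 to 7. AHL10, AT5G35935, AT3G29120 and AT2G05914 were called under all 24 alternatives, with AHL10 at log2 fold changes of -1.17 to -0.90. For the interaction, DESeq2's Wald test called 1 gene in place of 0, and every other alternative run for it called 0. All 6 genes had the same sign in control under all 21 alternatives that include control libraries. Leaving out a control library was also applied to the control values of the 50 and 35 genes after the data had been seen. Deviations of same-numbered WT and ahl10-1 stress libraries had correlations of 0.0594, 0.0523 and 0.105. For differently numbered libraries the correlations ran from -0.108 to 0.0568. The numbers were not taken as pairs in the main fit, and a shared experiment behind them was not tested. The replicate block on the stress libraries alone gave 7 calls, 4 of them among the 6, with AHL10 at -1.11. Transcripts under 1 CPM rest on few reads, which widens their errors.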
